A study of Saccharomyces cerevisiae with 14 samples.

Results

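Mitochondrial ribosomal protein genes of budding yeast were taken as the nuclear protein-coding genes of assembly R64 named MRP, MRPL or MRPS followed by a number. The rule found 56 genes among 6002, and each of the 56 lay outside the outer 10 kb of a chromosome and could be measured, as could 5889 genes in all. Of the 56, 38 encode proteins of the large subunit of the mitochondrial ribosome and 17 encode proteins of the small subunit. MRP8 matched the name rule but is not known as a ribosomal protein. MRP35 (YNL122C) was placed with the large subunit after the lists had been written.

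The mitochondrial ribosome translates the few proteins encoded in mitochondrial DNA, mostly subunits of the respiratory chain. Nearly all of its proteins are encoded in the nucleus, made in the cytosol and imported. In glucose medium these genes are expressed together at a moderate level, under control partly separate from that of the cytosolic ribosome. A typical yeast promoter has a nucleosome-depleted region flanked by a -1 and a +1 nucleosome, and remodellers such as SWI/SNF use ATP to slide or evict nucleosomes there.

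Chromatin of strain BY4741 grown in YPD at 30 °C was crosslinked and digested with micrococcal nuclease, which cuts the linker DNA between nucleosomes (MNase-seq). The mutant strains carried mutations of SNF2, the ATPase subunit of SWI/SNF. They were dAT and dSnAC, read here as strains whose Snf2 lacks its AT-hook region (dAT) or its SnAC domain (dSnAC), CD, catalytically dead through the substitution K798A, and dSnf2, which lacks the gene. WT carried intact SNF2. Each strain had 1 list of nucleosome calls, merged by the authors from replicates 2 and 3 (dAT), 1 and 3 (dSnAC), 1, 2 and 3 (CD), 1 and 2 (dSnf2) and 1, 2 and 3 (WT), so there is no spread between replicates. No difference between strains could be tested, and no p-value is given.

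The calls held 39312292 reads in dAT, 31881933 in dSnAC, 59767406 in CD, 41240133 in dSnf2 and 64981328 in WT. At the targeted gene, the SNF2 frame had an occupancy of 0.796 in dAT, 0.731 in dSnAC, 0.732 in CD, 0.00559 in dSnf2 and 0.663 in WT, on a scale where 1 is the median nuclear call of the file. WT, which had the highest promoter occupancies below, was also the deepest list, and the part of depth or of digestion in the differences was not tested. Occupancies are relative within a file, so a lower promoter value is lower only in relation to that file's other calls.

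The 56 genes were spread over 12 of the 16 chromosomes, with 9 each on IV and XIV, 7 each on II, XI and XIII, and 0 on I, V, VI and IX. Their frames were short, with a median of 657 bp (213 to 1185 bp) against 1209 bp for all genes. The nearest upstream gene ended or began a median of 312.5 bp from the start codon, against 445 bp for all genes. That neighbour was transcribed away from the member (divergent) for 30 members and in the same direction (tandem) for 26, against 3071 and 2818 of all genes. The promoter was measured from -300 to -1 bp of the start codon, so at many members the window reaches into the neighbour or is shared with a divergent promoter.

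Aligned on the start codon, the promoters of the members had a deep low point in every strain. In the mean profile the lowest value lay at -130 bp and was 0.0409 in dAT, 0.0487 in dSnAC, 0.0527 in CD, 0.0587 in dSnf2 and 0.0603 in WT. The same profile over all genes had its low point at 0.352, 0.378, 0.407, 0.435 and 0.464 in the same order of strains. However, the distance of the +1 nucleosome from the start codon varied more over all genes. With WT calls of at least 0.25, its centre had an interquartile range of -68 to 18 bp, against -7.5 to 22.75 bp in members. The part of this alignment in the depth of the low points was not tested. The profile of the members peaked at 10 bp downstream of the start codon, with 1.23 in dAT, 1.27 in dSnAC, 1.32 in CD, 1.35 in dSnf2 and 1.45 in WT. Thus the mutants kept the shape of the WT profile, with less on either flank of the low point.

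**Figure D1:**
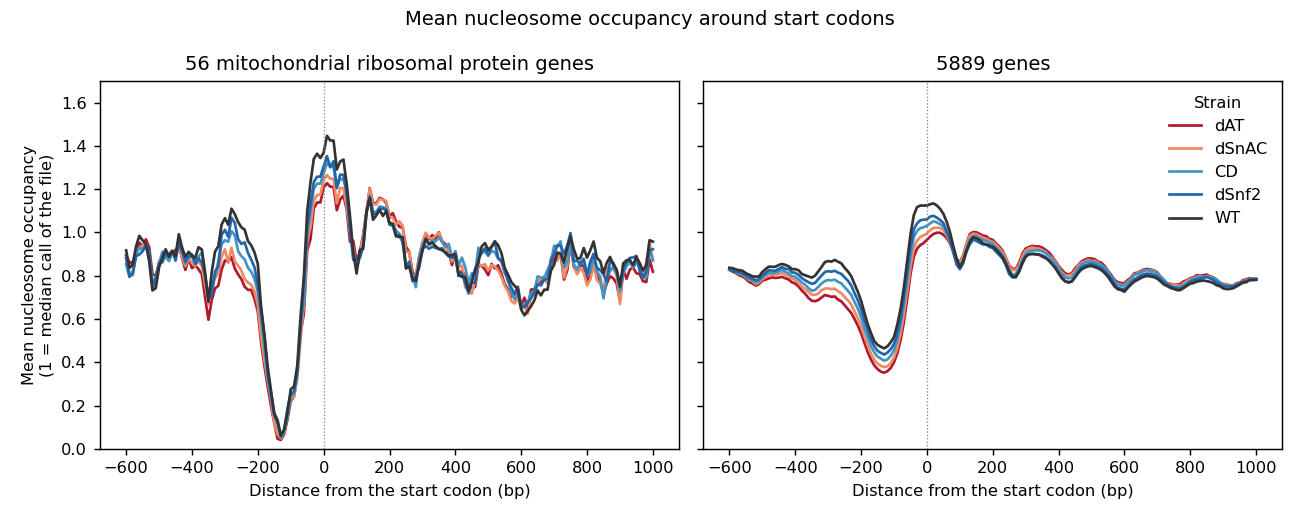
Mean nucleosome occupancy (1 is the median call of the file) against distance from the start codon in bp, for the 56 members (left) and 5889 genes (right), 1 line per strain. The members' low point at -130 bp lies between 0.0409 (dAT) and 0.0603 (WT), and the lines differ most at the -1 and +1 nucleosomes.

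Gene by gene, 40 of 56 members had a mean occupancy under 0.1 over the 60 bp that start at -160 bp in dAT, and 39 had one in each of dSnAC, CD, dSnf2 and WT. These were 71.4% of members in dAT and 69.6% in each other strain, against 46.0, 45.2, 44.1, 43.3 and 42.2% of all genes in dAT, dSnAC, CD, dSnf2 and WT. A value of 0.25 or more in that window was found for 9 members in dAT, 10 in dSnAC, 11 in CD, 12 in dSnf2 and 12 in WT, where 46.0, 47.3, 48.7, 49.5 and 49.7% of all genes had one. The highest of these was at MRPL7, which encodes the counterpart of bacterial protein L5, with 0.763 in dAT, 0.942 in dSnAC, 0.974 in CD, 0.991 in dSnf2 and 1.13 in WT. A low value in this window, which is fixed to the start codon, was therefore common among the members but not shared by all of them. The window lies around -130 bp, where the mean profiles of members and of all genes were lowest. It was added after values were seen. A high value there need not mean that a depleted region was missing. With calls of at least 0.25, the WT +1 nucleosome of MRPL7 was centred at -90 bp, beside a depleted region of 240 bp. A low point as deep was found elsewhere: the mean profile of 24 other genes of mitochondrial ribosomal proteins lay between 0.0124 (dAT) and 0.0307 (WT) at its lowest.

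The +1 nucleosome of the members sat on the start codon. With calls of at least 0.25, the WT +1 dyad (the centre of the nucleosome) lay at a median of 12 bp, inside the frame, against -9 bp for all genes. In WT the start codon was within 73 bp of the +1 dyad, under its footprint, in 52 of 56 members (92.9%), against 71.9% of all genes. Related lists had high shares too: all 24 other mitochondrial ribosomal protein genes, all 16 genes of mitochondrial tRNA charging, 21 of 24 mitochondrial translation factors, all 9 ribosome assembly genes and 122 of 135 cytosolic ribosomal protein genes (90.4%). The depleted region, measured from the -1 to the +1 dyad, had a median of 276.5 bp in WT with an interquartile range of 264 to 289 bp, against 266 bp and 231 to 292 bp for all genes. The widths of the members were thus less spread than those of all genes, around a similar median, a difference that was not tested. The 24 other mitochondrial ribosomal protein genes were alike, with 277.5 bp and 262.8 to 291.8 bp.

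Small and large subunit genes had depleted regions of similar width in WT. The depleted region had a median of 274.5 bp in the 38 large subunit genes and 276 bp in the 17 small subunit genes. The start codon lay under the +1 nucleosome in 35 and 16 of them. With calls of at least 0.25, the +1 dyad had a median of 16 bp in large subunit genes (interquartile range -4 to 29 bp). Small subunit genes had 2 bp (-19 to 13 bp), a difference that was not tested. The narrowest WT regions with calls of at least 0.25 were those of MRPS8 (222 bp), MRPL31 (227 bp), MRPL25 (239 bp) and MRPL7 (240 bp). The widest were those of MRPL15 (503 bp), MRPL16 (394 bp), MRPL11 (374 bp), whose product is the counterpart of the stalk protein L10, and MRP20 (344 bp), whose product corresponds to L23 at the tunnel exit. With every call kept, the narrowest were those of MRPL28 (155 bp), MRPS16 (155 bp), MRP4 (157 bp) and MRPL39 (158 bp), and the widest those of MRPS9 (293 bp), MRPL32 (288 bp), MRPL10 (287 bp) and MRPL38 (285 bp), so the order turned on calls below 0.25. The 4 members widest without weak calls had a divergent neighbour, as did 30 of all 56 members and 3071 of 5889 genes. In each of these 4 a call below 0.25 stood inside the region. Leaving out such calls joins the gaps beside them, so this follows in part from the ranking.

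The +1 nucleosomes of the members were also well occupied and well placed. With every call kept, their median occupancy was 1.21 in dAT, 1.28 in dSnAC, 1.34 in CD, 1.38 in dSnf2 and 1.49 in WT, against 1.05, 1.09, 1.15, 1.20 and 1.27 for all genes. The SD of the dyad position that the authors give for each call had a median of 18.7 bp in dAT, 18.4 bp in dSnAC, 19.0 bp in CD, 19.2 bp in dSnf2 and 18.8 bp in WT, against 23.4, 23.3, 22.9, 22.8 and 23.0 bp for all genes. In each strain the members' +1 nucleosomes were thus more occupied and less spread at the median than those of all genes, and the mutants differed from WT in occupancy but hardly in spread.

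**Figure D2:**
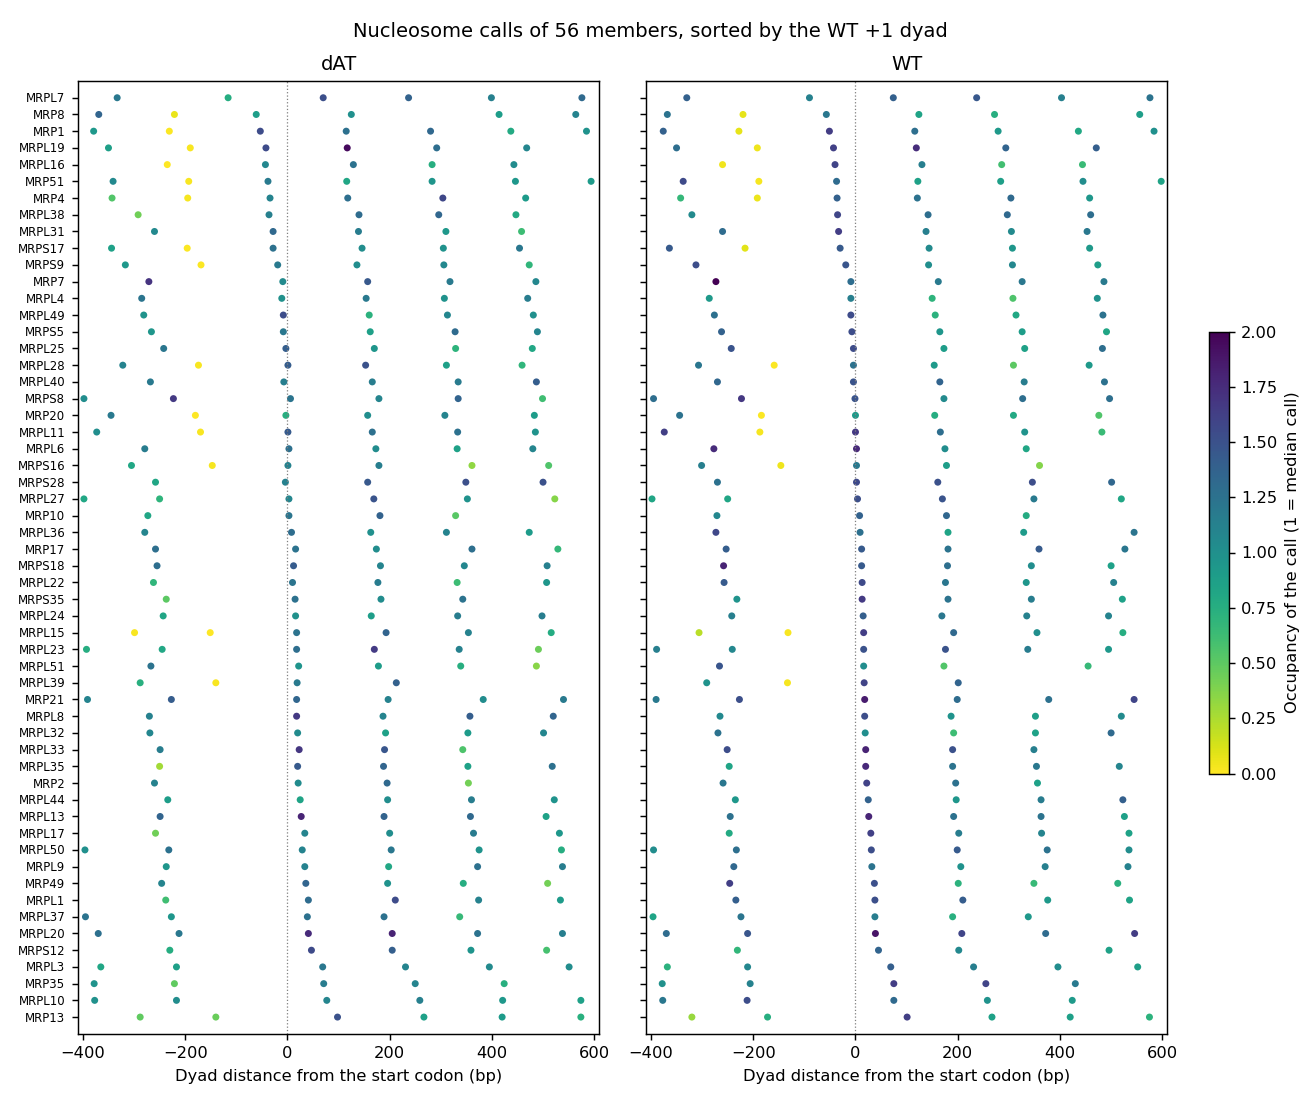
Nucleosome calls of the 56 members in dAT (left) and WT (right), 1 line per gene sorted by the WT +1 dyad, against distance from the start codon in bp, with occupancy as colour (1 is the median call). Most genes show an empty stretch upstream of a +1 call near 0 bp, and weak calls stand inside that stretch in some genes.

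Promoter occupancy was lower in the mutants than in WT for most members. The median over the 56 was 0.563 in dAT, 0.599 in dSnAC, 0.661 in CD, 0.701 in dSnf2 and 0.752 in WT. All genes had 0.602, 0.638, 0.683, 0.723 and 0.766 in that order of strains. Differences between strains were taken per gene as log2((mutant + 0.1) / (WT + 0.1)), a scale that understates changes at low occupancies. The median promoter log2 ratio of the members was -0.27 (dAT), -0.23 (dSnAC), -0.13 (CD) and -0.08 (dSnf2), and that of all genes -0.30, -0.23, -0.15 and -0.08.

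The promoter was below WT in 52 members in dAT, where 89.9% of all genes were, in 54 in dSnAC (89.0% of all genes), in 51 in CD (87.0%) and in 50 in dSnf2 (80.4%). With n = 56, these counts stand near the background, and the lower promoters are a feature of the whole genome that the members share. Counting error alone, from the reads under each window, gave a median 95% half-width of 0.087, 0.093, 0.076 and 0.083 on the log2 scale in the 4 comparisons. Members below WT by more than their own half-width numbered 52 in dAT (82.5% of all genes), 49 in dSnAC (77.3%), 45 in CD (71.3%) and 28 in dSnf2 (49.7%). Members above WT by as much numbered 2 in dAT (4.81% of all genes), 1 in dSnAC (4.77%), 0 in CD (5.47%) and 0 in dSnf2 (6.84%).

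A promoter log2 ratio of -0.58 or less, a 1.5-fold difference, was found for 6 members in dAT (background 11.0%), 2 in dSnAC (background 3.75%), 0 in CD (background 0.628%) and 0 in dSnf2 (background 0.306%). A ratio of 0.58 or more was found for 0 members in each mutant, where 0.221%, 0.323%, 0.526% and 0.73% of all genes had one. The 6 and 2 members past -0.58 were 10.7% and 3.57% of the 56, close to the shares of all genes, so the counts are no result about the members as a list.

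**Figure D3:**
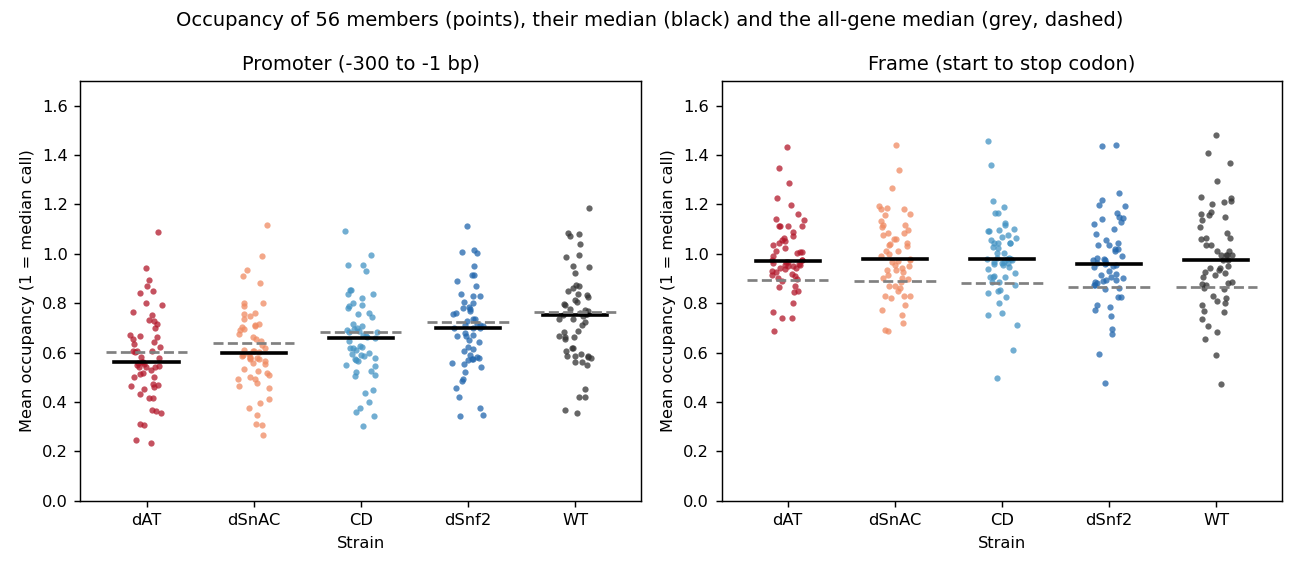
Mean occupancy (1 is the median call) of the promoter (left) and the frame (right) of each of the 56 members in the 5 strains, with the members' median (black) and the median of 5889 genes (grey, dashed). Promoter medians run from 0.563 in dAT to 0.752 in WT, while frame medians stay between 0.961 and 0.978.

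The strains stood in the same order at many members. Promoter occupancy was below WT in all 4 mutants at 46 of 56 members (82.1%, against 74.8% of all genes). It increased in the order dAT, dSnAC, CD, dSnf2, WT at 28 members (50.0%, against 46.2% of all genes). The lowest of the 5 values was that of dAT at 41 members, dSnAC at 11, CD at 2, dSnf2 at 1 and WT at 1, or 73.2, 19.6, 3.57, 1.79 and 1.79%, against 72.3, 13.8, 4.19, 5.38 and 4.35% of all genes. The deletion of SNF2 therefore stood nearest to WT at the median, as it did over all genes. Since the 4 comparisons share the WT list, agreement between them is not independent.

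Among large subunit genes, with a median promoter log2 ratio of -0.29 (dAT), -0.23 (dSnAC), -0.13 (CD) and -0.06 (dSnf2) (n = 38), MRP35 was lowest in dAT. MRP35 encodes the counterpart of bacterial L35 and lies on chromosome XIV (398023 to 398370, minus strand, R64), 313 bp from the end of TOM70. Its promoter had 0.246 in dAT, 0.313 in dSnAC, 0.400 in CD, 0.485 in dSnf2 and 0.549 in WT, so the 5 strains were in the order given above. The log2 ratios were -0.91, -0.65, -0.38 and -0.15, with counting half-widths of 0.13 and 0.14 in dAT and dSnAC.

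The promoter window of MRP35 holds little besides its -1 nucleosome, which was lower in each mutant than in WT. That call had an occupancy of 0.487 in dAT (exact 95% Poisson interval 0.434 to 0.544), 0.638 in dSnAC (0.571 to 0.711), 0.817 in CD (0.761 to 0.876), 0.991 in dSnf2 (0.916 to 1.07) and 1.12 in WT (1.06 to 1.19). Its dyad lay at -221, -216, -218, -211 and -206 bp in that order of strains. The next call upstream, at -378 bp in dAT, -380 bp in dSnAC and -378 bp in CD, dSnf2 and WT, held 0.975, 1.06, 1.07, 1.00 and 0.994, so it did not follow the same order. Inside the short frame the +1 call had 1.17 in dAT, 1.13 in dSnAC, 1.41 in CD, 1.44 in dSnf2 and 1.64 in WT, and the +2 call 1.10, 1.32, 1.34, 1.51 and 1.60. Both were lower in each mutant than in WT.

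MRPL1, which encodes the L1 protein of the large subunit, is on chromosome IV (682724 to 683581, minus strand), 364 bp from its tandem neighbour TMA64. Its promoter had 0.418 in dAT, 0.524 in dSnAC, 0.621 in CD, 0.669 in dSnf2 and 0.833 in WT, with log2 ratios of -0.85, -0.58, -0.37 and -0.28. In dSnAC its unrounded value lay just above -0.58, so it is not counted there. The -1 call, with its dyad at -234 to -239 bp, had 0.615 in dAT, 0.813 in dSnAC, 0.988 in CD, 1.14 in dSnf2 and 1.41 in WT. Its +2 call, at 210 bp in WT, was higher in each mutant, with 1.54 in dAT, 1.60 in dSnAC, 1.49 in CD, 1.51 in dSnf2 and 1.42 in WT.

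MRPL35, for a protein specific to mitochondrial ribosomes (chromosome IV, 1110589 to 1111692, plus strand), had a promoter occupancy of 0.368 in dAT, 0.398 in dSnAC, 0.510 in CD, 0.583 in dSnf2 and 0.665 in WT. Its -1 call had 0.276 in dAT, 0.346 in dSnAC, 0.497 in CD, 0.654 in dSnf2 and 0.832 in WT, and its log2 ratios over the promoter were -0.71, -0.62, -0.33 and -0.16. The frame of ASP1 ends 741 bp upstream, so this window lies wholly between genes.

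MRPL17, for another protein specific to mitochondrial ribosomes, had 0.310 in dAT, 0.375 in dSnAC, 0.438 in CD, 0.491 in dSnf2 and 0.563 in WT, with log2 ratios of -0.69, -0.48, -0.30 and -0.16. MRPL22, for the counterpart of the tunnel protein L22, had 0.515 in dAT, 0.610 in dSnAC, 0.686 in CD, 0.770 in dSnf2 and 0.871 in WT, with log2 ratios of -0.66, -0.45, -0.30 and -0.16. In both the strains stood in the order seen at MRP35.

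**Figure D4:**
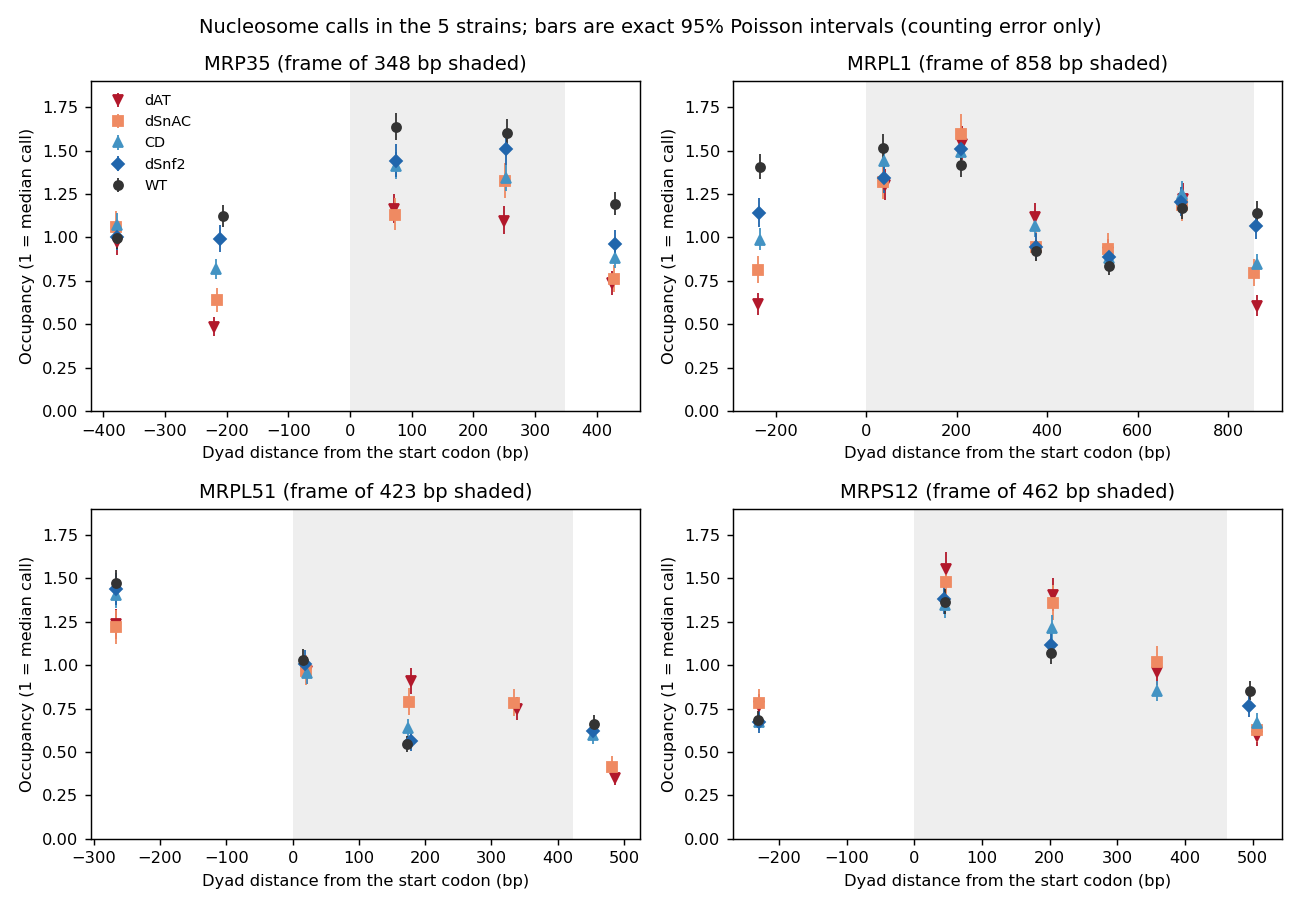
Occupancy of each nucleosome call (1 is the median call, with its exact 95% Poisson interval, counting error only) against dyad distance from the start codon in bp at MRP35, MRPL1, MRPL51 and MRPS12 in the 5 strains, with the frame shaded. At MRP35 and MRPL1 the -1 call is lowest in dAT and highest in WT, and at MRPL51 and MRPS12 a call near 339 and 359 bp is present in some strains only.

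At the other end, MRPL4 and MRPL8 were the large subunit genes with the highest promoter log2 ratios in dAT. MRPL4, for the counterpart of L29, had 0.643 in dAT, 0.575 in dSnAC, 0.595 in CD, 0.576 in dSnf2 and 0.585 in WT, and its log2 ratios were 0.12, -0.02, 0.02 and -0.02. MRPL8, for the counterpart of L17, had 0.698 in dAT, 0.709 in dSnAC, 0.684 in CD, 0.707 in dSnf2 and 0.664 in WT, with log2 ratios of 0.06, 0.08, 0.04 and 0.08. MRPL8 was above WT in each mutant, but in each by less than its half-width of counting error, 0.079, 0.086, 0.072 and 0.08. MRPL13 had 0.03 in dAT and -0.04, -0.04 and -0.08 in the other mutants. With the promoter taken from -200 bp, the sign turned for MRPL4 in dAT (-0.14) and CD (-0.11), for MRPL8 in dSnAC (-0.01) and CD (-0.03) and for MRPL13 in dAT (-0.04).

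The small subunit genes had median promoter log2 ratios of -0.24 (dAT), -0.21 (dSnAC), -0.14 (CD) and -0.10 (dSnf2) (n = 17), close to those of the large subunit genes. MRPS35 (chromosome VII, 829116 to 830153, plus strand) was the small subunit gene past -0.58, with promoter occupancies of 0.472 in dAT, 0.579 in dSnAC, 0.578 in CD, 0.672 in dSnf2 and 0.793 in WT. Its log2 ratios were -0.64, -0.40, -0.40 and -0.21. It was also the lowest member in CD. In dSnf2 the 5 lowest members were MRPL1, MRPL6, MRPS18, MRPS35 and MRP21, with log2 ratios of -0.28, -0.22, -0.22, -0.21 and -0.17. MRP21 encodes the counterpart of S21, and its promoter had 0.943 in dAT, 0.992 in dSnAC, 0.956 in CD, 0.950 in dSnf2 and 1.08 in WT.

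MRPS12 encodes the counterpart of S12, a protein of the decoding centre, and is on chromosome XIV (694361 to 694822, minus strand). Its promoter had 0.501 in dAT, 0.503 in dSnAC, 0.450 in CD, 0.458 in dSnf2 and 0.454 in WT. The log2 ratios of 0.12, 0.12, -0.01 and 0.01 made it the highest member in dAT and dSnAC, and its values near 0 turned sign with mean scaling in CD (0.004) and with a shorter footprint in dSnf2 (-0.0002). Its tandem neighbour RSM19, 229 bp away, also encodes a protein of the small subunit. MRP8 had -0.31, -0.30, -0.12 and -0.03, within the range of the ribosomal protein genes.

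In WT the promoter occupancies of the members ranged from 0.355 to 1.19. The 4 highest were MRPS8 (1.19), MRP21 (1.08), MRP7 (1.08), for the counterpart of L27 near the peptidyl transferase centre, and MRPL31 (1.07). The 4 lowest were MRP20 (0.355), MRPL15 (0.368), MRPL11 (0.422) and MRP13 (0.422). All 8 were below WT in each mutant, by log2 ratios between -0.48 (MRPL15 in dAT) and -0.005 (MRP13 in dSnf2). MRPS8 had 1.09 in dAT, 1.12 in dSnAC, 1.09 in CD, 1.11 in dSnf2 and 1.19 in WT, and MRP20 had 0.305, 0.307, 0.345, 0.343 and 0.355 in the same order.

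The 6 members past -0.58 in dAT all had a tandem neighbour. Of 26 tandem members, 6 (23.1%) were past -0.58 in dAT and 2 (7.69%) in dSnAC, while 0 of 30 divergent members were past it in either. Among all genes in dAT, 14.4% of tandem and 7.85% of divergent genes were past it, and in dSnAC 4.37% and 3.19%. The median log2 ratio of tandem members was -0.36 (dAT), -0.28 (dSnAC), -0.15 (CD) and -0.07 (dSnf2). Divergent members had -0.23, -0.20, -0.12 and -0.08. All tandem genes had -0.34 in dAT and all divergent genes -0.25, so a difference between orientations was present over all genes too. It was not tested.

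**Figure D5:**
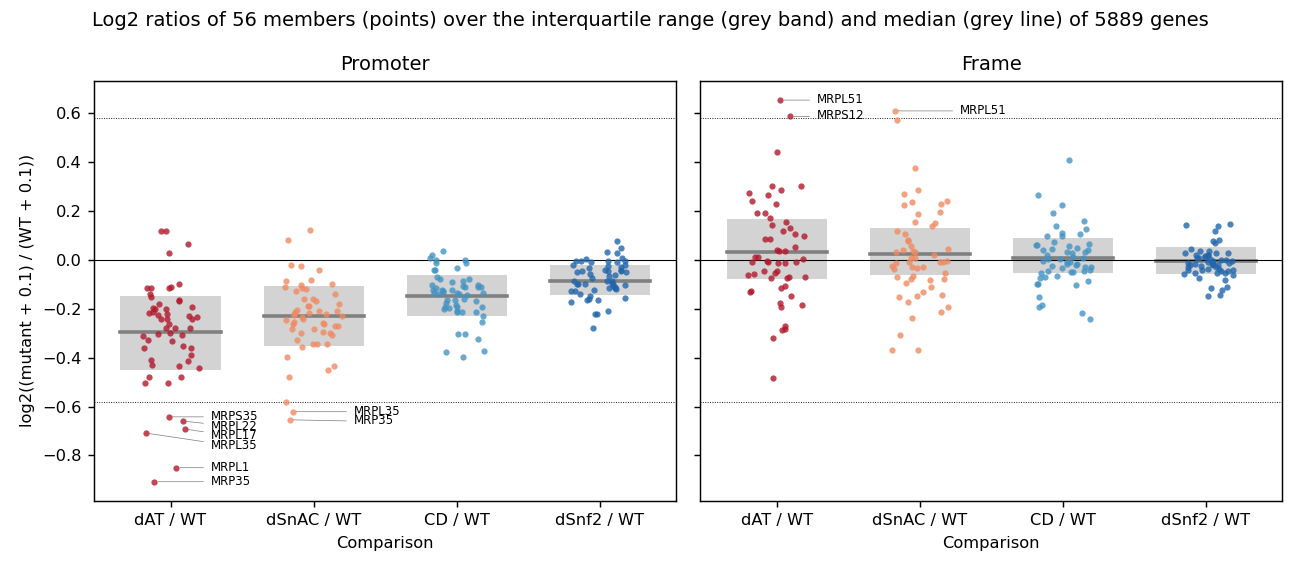
Log2 ratio of mutant over WT, with 0.1 added to both, for the promoter (left) and frame (right) of each of the 56 members (points), over the interquartile range and median of 5889 genes (grey), with dotted lines at -0.58 and 0.58. Named points are past a line: 6 promoters in dAT, 2 promoters in dSnAC, 2 frames in dAT and 1 frame in dSnAC.

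Position by position, the lower occupancy was at the -1 and +1 nucleosomes and ended at +2. For this, nucleosomes were numbered from the WT +1 among calls of at least 0.25 and matched to the nearest dyad in each mutant. The -1 nucleosome had a median occupancy of 0.995 in dAT, 1.05 in dSnAC, 1.15 in CD, 1.19 in dSnf2 and 1.27 in WT, and it was lower in 51 (dAT), 53 (dSnAC), 52 (CD) and 46 (dSnf2) of 56 members, where 85.7%, 83.8%, 83.9% and 78.4% of all genes had a lower one. Its median log2 ratios were -0.37, -0.30, -0.18 and -0.09, against -0.32, -0.25, -0.17 and -0.10 for all genes.

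The +1 nucleosome had medians of 1.23 in dAT, 1.30 in dSnAC, 1.35 in CD, 1.40 in dSnf2 and 1.51 in WT, with log2 ratios of -0.23, -0.19, -0.12 and -0.08. It was lower in 49, 51, 52 and 47 members, where 86.1%, 85.2%, 85.6% and 80.7% of all genes had a lower one, and the all-gene medians were -0.26, -0.20, -0.14 and -0.09. At +2 the median log2 ratios of the members were 0.03, 0.04, 0.01 and 0.01, and at +4 they were 0.07, 0.07, 0.06 and 0.001 over the 31 to 33 members matched. All genes had 0.09, 0.08, 0.06 and 0.02 at +4. The members therefore followed the genome at each position. They had less at both edges of the depleted region and about as much or slightly more from +2 on.

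The +1 nucleosome lay close to its WT position in most members. Its dyad was within 5 bp of WT in 48 members in dAT (background 73.1%), 51 in dSnAC (background 77.0%), 53 in CD (background 82.3%) and 54 in dSnf2 (background 82.7%), or 85.7%, 91.1%, 94.6% and 96.4% of the members. A shift of 20 bp or more downstream was found in 0 members in each mutant, where 2.07%, 1.59%, 1.39% and 1.36% of all genes had one. A shift of 20 bp or more upstream was found in 1 member in dAT (background 4.86%), 2 in dSnAC (4.46%), 1 in CD (4.5%) and 1 in dSnf2 (4.8%). Within 5 bp, the share of members was larger than that of all genes in each mutant, a difference that was not tested.

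MRPL7, on chromosome IV (936615 to 937493, plus strand), was the member with an upstream shift in each mutant. The dyad on the gene side of its widest gap lay at -116 bp in dAT, -117 bp in dSnAC, -114 bp in CD and -116 bp in dSnf2, against -90 bp in WT, a shift of -26, -27, -24 and -26 bp. Its occupancy was 0.763, 0.942, 0.974 and 0.991 in the mutants and 1.13 in WT. The SD of this dyad was 24.2, 23.0, 23.9, 24.2 and 23.7 bp in dAT, dSnAC, CD, dSnf2 and WT. This SD describes the spread of positions within a call and does not give the error of the shift. Each shift is measured against the same WT call at -90 bp, so the shifts are not independent. The next call downstream lay at 70 bp in dAT, 70 bp in dSnAC, 71 bp in CD and 70 bp in dSnf2, against 74 bp in WT. MRPL15 had the other shift in dSnAC, of -29 bp, at a WT call of 0.0214 with 22 reads.

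Weak calls of this kind bounded the widest gap in some members. A +1 call below 0.25 was chosen in 4 members in dAT, 3 in dSnAC, 4 in CD, 7 in dSnf2 and 4 in WT, where 9.29, 9.12, 8.69, 8.05 and 8.44% of all genes had one. Over the strains 11 members were affected at least once. The widest gap stood at another place than in WT in 6 members in dAT (background 20.8%), 4 in dSnAC (19.3%), 3 in CD (17.4%) and 7 in dSnf2 (16.0%). MRPS16 is an example, with a call of 0.0298 in dAT, 0.0389 in dSnAC, 0.047 in CD, 0.044 in dSnf2 and 0.0505 in WT taken as +1. For that reason widths are also given without such calls.

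The width of the depleted region was nearly the same in all strains. With every call kept, the median was 260 bp in dAT, 263 bp in dSnAC, 262.5 bp in CD, 259 bp in dSnf2 and 264.5 bp in WT. It was wider than in WT by 20 bp or more in 1 member in dAT (background 9.26%), 1 in dSnAC (8.24%), 0 in CD (6.5%) and 0 in dSnf2 (6.54%). It was narrower by as much in 5 members in dAT (background 8.55%), 4 in dSnAC (7.7%), 4 in CD (6.76%) and 3 in dSnf2 (6.05%). With calls of at least 0.25, 1, 0, 0 and 0 members were wider and 3, 3, 4 and 3 narrower in dAT, dSnAC, CD and dSnf2, against 8.06%, 6.81%, 5.82% and 5.5% of all genes wider and 6.46%, 5.68%, 6% and 6.15% narrower.

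The few members counted there can be named. MRPL7 was narrower in each mutant, with 217 bp in dAT, 215 bp in dSnAC, 215 bp in CD and 212 bp in dSnf2, against 240 bp in WT. MRPL38, for the counterpart of L14, had 256, 261, 268 and 257 bp in the mutants against 285 bp in WT. MRPL28 was the member wider in dAT, with 323 bp in dAT, 317 bp in dSnAC, 312 bp in CD and 304 bp in dSnf2, against 303 bp in WT. The other narrower members were MRP13 in dAT (by -35 bp), MRPL44 in dSnAC and CD (-24 and -25 bp), MRPS17 in CD and dSnf2 (-21 and -20 bp) and MRPS28 in CD (-20 bp).

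Occupancy over the frames was close between strains at the median. The members had 0.971 in dAT, 0.977 in dSnAC, 0.978 in CD, 0.961 in dSnf2 and 0.975 in WT, against 0.895, 0.891, 0.881, 0.868 and 0.865 for all genes. The members' frames were thus more occupied at the median in each strain. They are also shorter, as given above, and the part of length was not tested. Frames with a log2 ratio below 0 numbered 28 (dAT), 29 (dSnAC), 28 (CD) and 35 (dSnf2), where 40.7%, 41.2%, 43.9% and 51.8% of all genes lay below 0. The median frame log2 ratio was -0.002 (dAT), -0.006 (dSnAC), 0.0009 (CD) and -0.015 (dSnf2), and that of all genes 0.03, 0.03, 0.01 and -0.003.

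A frame log2 ratio of 0.58 or more was found for 2 members in dAT (background 0.815%), 1 in dSnAC (background 0.458%), 0 in CD (background 0.391%) and 0 in dSnf2 (background 0.255%). A ratio of -0.58 or less was found for 0 members in each mutant, where 0.645%, 0.272%, 0.119% and 0.119% of all genes had one. The members past 0.58 were MRPL51, whose frame overlaps that of YPR099C by 323 bp, and MRPS12. Their frames are short, 423 bp and 462 bp, and hold 2 or 3 dyads in each strain.

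MRPL51 (chromosome XVI, 729791 to 730213, plus strand), for a protein specific to mitochondrial ribosomes, had a frame occupancy of 0.801 in dAT, 0.774 in dSnAC, 0.496 in CD, 0.475 in dSnf2 and 0.473 in WT. Its log2 ratios were 0.65, 0.61, 0.06 and 0.01, so dAT and dSnAC stood apart from the other 3 strains. In dAT and dSnAC a call of 0.747 and 0.780 lay at 339 and 334 bp, with 476 and 401 reads, where CD, dSnf2 and WT had none. In those 2 strains the next call lay 148 bp further on, at 487 and 482 bp, with 0.352 and 0.414. In CD, dSnf2 and WT a call of 0.596, 0.619 and 0.660 lay at 453, 454 and 455 bp.

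MRPS12 showed a like pattern at its frame, with CD on the side of dAT and dSnAC. Its frame had 1.20 in dAT, 1.18 in dSnAC, 1.05 in CD, 0.774 in dSnf2 and 0.763 in WT, with log2 ratios of 0.59, 0.57, 0.41 and 0.02. A call of 0.962, 1.02 and 0.851 lay at 359, 358 and 359 bp in dAT, dSnAC and CD, and none lay there in dSnf2 or WT. The next call was again 148 bp away in each of those 3 strains, at 507, 506 and 507 bp. In dSnf2 and WT the calls on either side were 293 and 294 bp apart.

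The distance of 148 bp is the smallest between neighbouring dyads in each of the 5 lists, and the sources used here do not name the caller behind it. It was found between 12.9% of neighbouring calls in dAT, 12.1% in dSnAC, 10.3% in CD, 9.61% in dSnf2 and 9.37% in WT. Whether such spacing makes the extra calls at MRPL51 and MRPS12 was not tested. MRPS17 had the reverse in dSnAC, where the call near 454 bp was missing and its neighbours lay 290 bp apart. Its frame had 0.960 in dAT, 0.690 in dSnAC, 0.885 in CD, 0.883 in dSnf2 and 0.921 in WT, and in the other 4 strains that call was 148 bp from a neighbour.

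Other frames differed by less. MRPL28 had 1.11 in dAT, 1.06 in dSnAC, 0.974 in CD, 0.886 in dSnf2 and 0.793 in WT, with log2 ratios of 0.44, 0.38, 0.27 and 0.14. MRP35 was at the other end, with 0.949 in dAT, 1.04 in dSnAC, 1.16 in CD, 1.25 in dSnf2 and 1.37 in WT, and log2 ratios of -0.48, -0.37, -0.22 and -0.12. Both followed the same order of strains, in opposite directions. MRP2, for the counterpart of S14, had -0.27, -0.31, -0.24 and -0.14, and MRPL13 had 0.19, 0.24, 0.22 and 0.15.

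Further lists covered other genes of mitochondrial translation. A further 24 nuclear genes of mitochondrial ribosomal proteins outside the name rule, such as PET123 and RSM19, had median promoter log2 ratios of -0.24 (dAT), -0.19 (dSnAC), -0.15 (CD) and -0.09 (dSnf2), with 1, 0, 0 and 0 at or below -0.58. Translation factors of the organelle (24 genes) had -0.26, -0.20, -0.16 and -0.09, with 1, 0, 0 and 0 past it. Mitochondrial tRNA charging genes (16) had -0.37, -0.28, -0.16 and -0.09, with 4, 0, 0 and 0 past it. Assembly factors of the mitochondrial ribosome (9 of 10 matched) had -0.20, -0.22, -0.06 and -0.05, with 0 past it in each mutant. Of all genes, 11.0%, 3.75%, 0.628% and 0.306% were at or below -0.58 in dAT, dSnAC, CD and dSnf2. A ratio of 0.58 or more was found for 0 genes of these 4 lists, where 0.221%, 0.323%, 0.526% and 0.73% of all genes had one.

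The 138 cytosolic ribosomal protein genes had medians of -0.40 (dAT), -0.36 (dSnAC), -0.20 (CD) and -0.07 (dSnf2). Of these 138 genes, 38, 28, 4 and 0 were at or below -0.58, where 11.0%, 3.75%, 0.628% and 0.306% of all genes were. Their WT depleted region was 376 bp at the median with calls of at least 0.25 (n = 135), against 276.5 bp for the mitochondrial ribosomal protein genes. In the same 60 bp from -160 bp on, 117 of the 138 were under 0.1 in dAT, 117 in dSnAC, 110 in CD, 94 in dSnf2 and 70 in WT. The mitochondrial list had 40, 39, 39, 39 and 39 of 56. The difference between the lists was not tested.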

How the data were processed

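Per the labels' descriptions, the authors merged replicates of a strain and deposited 1 list of nucleosome calls each; 2 of 14 samples (dAT replicate 1, dSnAC replicate 2) are in no list. Bowtie and sacCer3 are named in the submitters' processing notes. For caller, smoothing and filters the sources used here give no name or setting. Per the file headers, each call has a dyad, the SD of its dyad in bp, an occupancy and a conditional position. The deposited occupancy signal has nearly equal sums in the 5 lists, by a scaling the authors do not state, and 100% of its values were whole multiples of 1 read (tolerance 0.01). The conditional position, a deposited fraction, was not used.

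Occupancy was divided by the median nuclear call of the file, leaving out rDNA (chromosome XII, 451000 to 469000), and spread over 147 bp around each dyad. Genes within 10000 bp of a chromosome end were left out. Window means were compared as log2 with 0.1 added, and 0.58 (1.5-fold) was the size counted. The depleted region was the widest gap between dyads with its midpoint from -350 to 50 bp. Dyads were matched within 73 bp, and 20 bp was the shift counted. The RefSeq R64 table gave symbols, coordinates and neighbours, and strand was read from systematic names. Intervals (95%) printed with values cover counting error only. A median call had 637 (dAT), 514 (dSnAC), 957 (CD), 659 (dSnf2) and 1030 (WT) reads. Its half-width was 7.85, 8.75, 6.39, 7.71 and 6.16% in that order.

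The members and lists were chosen with earlier results of these data known. Genes were named by rank: the 5 highest and 5 lowest promoter ratios and the 3 highest and 3 lowest frame ratios per mutant, the 4 highest and 4 lowest in WT promoter occupancy and width, and those past a size. The numbering of nucleosomes from calls of at least 0.25, the 60 bp window from -160 bp, the spacing of calls and the comparison by orientation were added after values were seen. Promoter sequences and motifs were not analysed here. The scripts were tested on simulated data. Python 3.11.15, numpy 2.4.6, pandas 2.3.3, scipy 1.17.1 and matplotlib 3.10.9 were used.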

Additional observations from a re-analysis of the deposited data

How the results depend on the processing

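No paired analysis was possible because each strain has 1 list merged over its replicates, which also left no replicate to leave out. The motif search planned for promoter sequences was not run. Among values recomputed for the comparisons as a whole, 307 stayed within the limits set and 49 moved, and among values for single genes 250 stayed and 30 moved. Sign changed in 15 values of the comparisons, all medians (frame ratios, and promoter ratios relative to all genes). Their main values were within 0.026 of 0, and the values under the other settings were up to 0.0644 in size. Sign also changed in 7 values of single genes: MRPL4, MRPL8 and MRPL13 with the promoter taken from -200 bp, and MRPS12. The cause was not tested unless the setting itself gives it. Scaling by the mean call moved the all-gene median promoter ratio by 0.027, 0.020, 0.016 and 0.010 (dAT, dSnAC, CD, dSnf2) and put 2 frames of members past 0.58 in dSnAC. The counts under other settings in this section are given without the all-gene share under the same setting. They are not a result about the members against all genes.

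With a pseudocount of 0.25, which shrinks every ratio, 2 promoters in dAT and 0 in dSnAC were at or below -0.58, 0 frames in dAT and 0 in dSnAC were at or above 0.58, and the median promoter ratio was -0.19 in dSnAC and -0.11 in CD. With a size of 1 in place of 0.58, the counts were 0 promoters in dAT and 0 in dSnAC, and 0 frames in dAT and 0 in dSnAC. With the promoter taken from -200 bp, 3 promoters in dAT and 1 in dSnAC were past -0.58, the median ratio in dSnAC was -0.20 and the WT promoter median was 0.587. With a shorter footprint, 1 frame was past 0.58 in dAT.

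With calls of at least 0.25 only, 3 depleted regions were narrower in dAT, 0 were wider in dSnAC, 1 +1 dyad lay upstream in dSnAC, and the WT width was 276.5 bp. With 10 bp as the size counted, 2 +1 dyads lay upstream in dAT and 1 downstream in each of dAT and CD; 4, 4 and 3 regions were wider in dAT, dSnAC and CD, and 7 were narrower in CD.

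Without members that have a divergent neighbour, the median promoter ratio was -0.36 in dAT and -0.28 in dSnAC. Relative to all genes of both orientations this was -0.064 and -0.048, where all 56 members had 0.026 and 0.0021. That reference is unlike the subset: all tandem genes had medians of -0.34 in dAT and -0.26 in dSnAC, nearer to the tandem members. In that subset 1 frame in dAT and 0 in dSnAC were past 0.58, 0 +1 dyads lay upstream in each of the 4 mutants, 0 regions were wider in dAT and 0 in dSnAC, and 3, 2, 2 and 1 were narrower (dAT, dSnAC, CD, dSnf2). With the other 24 mitochondrial ribosomal protein genes added, 2 +1 dyads lay upstream in dAT and 2 in CD, and 2, 2, 1 and 1 regions were wider.

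Depth limits single promoters: differences under about 0.09 on the log2 scale, as at 28 of 56 members in dSnf2 and at MRPL8, are within counting error. Growth, digestion and library preparation cannot be told apart from genotype with 1 merged list per strain.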
